A study of Homo sapiens with 4 samples.

Results

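The RNA component of RNase P (RPPH1) and the vault RNAs are short nuclear-encoded RNAs that carried some of the most heavily read nuclear binding sites of GTPBP8 in fPAR-CLIP. All sites outside the mtDNA that were named RPPH1 or named for a vault RNA (VTRNA) were taken from 4 lists of binding sites, together with any site that overlapped the RPPH1 locus on either strand. This gave 12 of 2341 sites, 6 on RPPH1, 3 on VTRNA1-2 and 3 on VTRNA1-1, and all 12 were in the GTPBP8 lists. A search by position over the RefSeq vault RNA genes found 3 more sites, 2 of them without a gene name in the AUH list and 1 named Vault in GTPBP8 replicate 3. RPPH1 and VTRNA1-2 were chosen by their reads at nuclear sites in the GTPBP8 libraries, so their levels there are described without a test.

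fPAR-CLIP crosslinks 4-thiouridine (4SU) in RNA to the protein that touches it, and each crosslinked base then tends to be sequenced as C in place of T, a T-to-C conversion. The libraries were made from whole lysates of doxycycline-inducible HEK293 cells, a human embryonic kidney line, that expressed FLAG-tagged GTPBP8 (3 biological replicates) or V5-tagged AUH (1 library). Both groups received doxycycline (50 ng/ml, 48 h), 4SU (100 µM, 16 h) and UV light (312 nm, 5 min), and RNase T1, which cuts after G, trimmed the bound RNA. The GTPBP8 line was a single clonal population, both proteins came from an inducible transgene, and no library without a tagged protein is analysed here. Levels are given as reads per 1000000 site reads (CPM) or as a share of the reads at nuclear sites. The GTPBP8 lists held 402701, 627603 and 403172 site reads in replicates 1, 2 and 3, of which 26677, 32665 and 31107 were nuclear, and the AUH list held 9684, of which 7795 were nuclear. Nuclear sites thus held 6.62%, 5.20% and 7.72% of the GTPBP8 total, but 80.5% of the AUH total. The smallest listed site had 5 reads in each GTPBP8 library (8.0 to 12.4 CPM) and 4 reads for AUH (413 CPM), and a gene without a listed site is not a gene without reads.

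RNase P is the ribonucleoprotein that removes the 5′ leader from precursor tRNAs in the nucleus, and RPPH1 is its catalytic RNA. Human mitochondria carry a separate RNase P made of protein alone, which cuts the tRNAs out of the long mitochondrial transcripts. Vault RNAs are a minor part of the vault, a large barrel-shaped cytoplasmic particle built of the major vault protein, and most vault RNA in a cell is outside the particle. RPPH1 and the vault RNAs are both made by RNA polymerase III, as are tRNAs, 5S rRNA, 7SK and the Y RNAs. Vault RNA genes carry their promoter inside the transcribed sequence, in an A box and a B box like those of tRNA genes.

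The sites that carry the result are shown as the lists give them, written as DNA in the sense of the RNA, 5′ to 3′, on GRCh38. For RPPH1 (RefSeq gene, chr14:20343071-20343411, 341 nt, transcribed from the minus strand), the longest main site is from GTPBP8 replicate 2, chr14:20343259-20343382, with the 55 nt common to the main sites of the 3 replicates in capitals. The region nearer to the 3′ end is from replicate 3, chr14:20343148-20343228, with capitals for the 11 letters that it shares with the main site.
RPPH1 main site: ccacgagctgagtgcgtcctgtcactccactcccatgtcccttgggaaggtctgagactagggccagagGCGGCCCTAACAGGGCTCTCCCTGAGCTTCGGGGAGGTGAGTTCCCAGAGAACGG
RPPH1 3′ region: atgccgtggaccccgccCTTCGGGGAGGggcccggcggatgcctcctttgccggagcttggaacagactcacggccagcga

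For VTRNA1-2 (chr5:140718926-140719013, 88 nt), the site of GTPBP8 replicate 1, chr5:140718946-140719013 on the plus strand, is set beside that of AUH, chr5:140718972-140719020, with the 42 nt common to all 4 libraries in capitals.
VTRNA1-2, GTPBP8: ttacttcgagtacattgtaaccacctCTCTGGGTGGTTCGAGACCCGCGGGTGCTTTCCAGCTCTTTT
VTRNA1-2, AUH: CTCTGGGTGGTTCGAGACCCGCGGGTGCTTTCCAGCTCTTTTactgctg

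For VTRNA1-1 (chr5:140711276-140711373, 98 nt), the sites lay in different parts of the RNA, so 3 are shown. They are the 5′ site of GTPBP8 replicate 2 (chr5:140711275-140711314), the 3′ site of replicate 1 (chr5:140711319-140711371) and the AUH site (chr5:140711312-140711351). Capitals mark the motif GTTCGANNC, the core of the B box.
VTRNA1-1, GTPBP8 replicate 2: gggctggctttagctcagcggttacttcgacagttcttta
VTRNA1-1, GTPBP8 replicate 1: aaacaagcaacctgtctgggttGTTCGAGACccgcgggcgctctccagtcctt
VTRNA1-1, AUH: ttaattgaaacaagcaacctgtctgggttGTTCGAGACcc

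In RPPH1, GTPBP8 had its main site in the first part of the RNA in each replicate, and the position of its 3′ end did not vary. Counted from 1 at the RNA 5′ end, the main site started at 99, 30 and 91 in replicates 1, 2 and 3 and always ended at 153. It held 790, 1323 and 986 reads, and the position of highest conversion signal that the lists give was 123 in all 3 replicates. A second region followed after a gap of 18 nt without a listed site (154 to 171). In replicate 2 it was listed as a site from 172 to 221 with 285 reads and an adjoining one from 222 to 264 with 67, and in replicate 3 as 1 site from 184 to 264 with 153. Replicate 1 had no listed site there. The last 77 nt of the RNA, after 264, and the first 29 nt held no listed site in any library. The lists name these sites RPPH1 but class them as antisense, although they lie on the minus strand, from which RPPH1 is transcribed.

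The main site and the 3′ region of RPPH1 both contained the 11 letters CTTCGGGGAGG, starting at positions 125 and 201 of the RNA. In the sites with these letters the conversion signal was highest at 123 and at 212. Those positions are an A and a G, so they are not converted thymidines themselves. Searched on both strands, the 11 letters occurred in 1, 2 and 2 nuclear sites of GTPBP8 replicates 1, 2 and 3, which were these RPPH1 sites, in none of 674 nuclear AUH sites and in 0.0797% of 35116 RefSeq promoter windows of 300 bases. The match is a description of the letters, and nothing about binding follows from it. Promoter windows are longer than most sites, so the rates in windows and in sites cannot be compared directly.

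**Figure D1:**
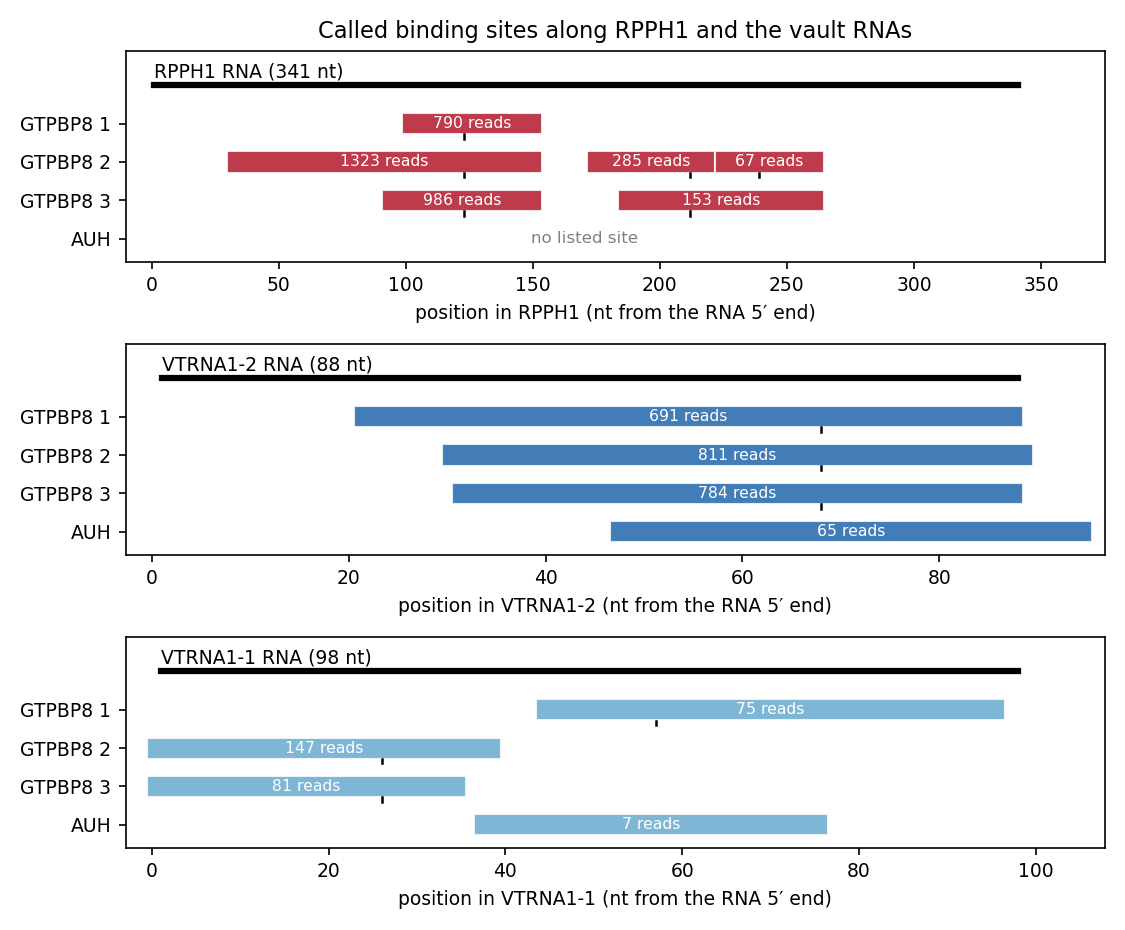
Called binding sites along RPPH1, VTRNA1-2 and VTRNA1-1, with the position in nt from the RNA 5′ end on the horizontal axis and 1 row per library (GTPBP8 replicates 1 to 3 and AUH). Bars are sites with their reads, black ticks the position of highest conversion signal in the GTPBP8 lists, and the black line the RNA. The main RPPH1 sites all end at 153, the VTRNA1-2 sites all cover the 3′ part, and the VTRNA1-1 sites of replicate 1 and of replicates 2 and 3 do not overlap.

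Summed over its sites, RPPH1 had 790, 1675 and 1139 reads in GTPBP8 replicates 1, 2 and 3, or 1962, 2669 and 2825 CPM, with a mean of 2485 ± 460 (SD, n = 3). Replicate 1, with the main site alone, was the lowest. The main site held 100%, 79.0% and 86.6% of the RPPH1 reads. As a share of nuclear site reads, RPPH1 had 2.96%, 5.13% and 3.66%, and replicate 2 was then the highest. Among the nuclear sites, the main site was in place 8 of 417, 5 of 695 and 7 of 398 by reads. RPPH1 had the highest mean CPM of the 50 named nuclear genes with sites in every GTPBP8 replicate. NEDD4, with 2337, 1793 and 2917 CPM, was nevertheless above RPPH1 in replicates 1 and 3. Sites without a gene name are outside this ranking.

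VTRNA1-2 had 1 site per GTPBP8 library, over the 3′ part of the RNA. It started at 21, 30 and 31 in replicates 1, 2 and 3 and ended at 88, 89 and 88, in replicate 2 thus 1 nt past the RefSeq end, and 58 nt were common to the 3 replicates. The conversion signal was highest at 68 in each of them. The site held 691, 811 and 784 reads, or 1716, 1292 and 1945 CPM, with a mean of 1651 ± 331 (SD, n = 3). As a share of nuclear site reads it was 2.59%, 2.48% and 2.52%, a spread of 0.0545 percentage points (SD, n = 3), against 1.11 points for RPPH1. By reads, it was in place 10 of 417, 10 of 695 and 9 of 398 among nuclear sites. VTRNA1-2 was in place 3 by mean CPM among the 50 named genes.

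VTRNA1-1, a vault RNA encoded upstream of VTRNA1-2 on chromosome 5, had 75, 147 and 81 reads, or 186, 234 and 201 CPM, with a mean of 207 ± 24.6 (SD, n = 3). As a share of nuclear site reads it had 0.281%, 0.450% and 0.260%, with replicate 2 the highest. The place of the site differed between replicates. Replicates 2 and 3 had it at the 5′ end, from 1 nt before the RefSeq start to 39 and 35, with the highest conversion signal at 26. Replicate 1 had it from 44 to 96, with the signal at 57. It was in place 37 of 417, 30 of 695 and 47 of 398, and in place 12 by mean CPM among the 50 named genes. VTRNA1-3, another gene of this cluster, had no listed site in any library. VTRNA2-1, a related RNA polymerase III transcript encoded elsewhere on chromosome 5, had 1 site of 5 reads, the smallest size listed, in GTPBP8 replicate 3, at 37 to 58 of the RNA (chr5:136080541-136080562, minus strand).

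The vault RNAs are similar in sequence, so reads could in principle be placed on the wrong one. The longest stretch that the VTRNA1-2 site of replicate 1 had in common with the 3′ site of VTRNA1-1 was 16 nt (GTTCGAGACCCGCGGG), and with the 5′ site it was 9 nt. No stretch of 19 nt was shared between member sites of different genes, or with any of the other sites on either strand. This is the length of the shortest sites in each list. Only listed site sequences were compared, not whole RNAs, so a vault RNA without a listed site was left out. The 9 nt began at the first letter of the VTRNA1-2 site, so the site edge limited that match. Whether reads at the 5′ sites of VTRNA1-1 came from another vault RNA was thus not tested. None of 4 RefSeq pseudogenes of RPPH1 and the vault RNAs held a site. VTRNA1-1 and VTRNA1-2 lie within the RefSeq span of LOC105378198, which starts at the same base as VTRNA1-1 and is on the plus strand in the RefSeq promoter table, like the vault RNA sites, so reads of that RNA cannot be told apart from vault RNA reads here.

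The motif GTTCGANNC, the core of the B box that recruits the RNA polymerase III factor TFIIIC, was searched on both strands of the sites. It was present in each VTRNA1-2 site, starting at position 56 of the RNA, in the VTRNA1-1 site of replicate 1 and in that of AUH, starting at 66. It was absent from the 5′ sites of VTRNA1-1 and from RPPH1. Of all nuclear sites it was in 2 of 417, 3 of 695 and 1 of 398 for GTPBP8, in 28 of 674 for AUH, 26 of them on tRNA genes, and in 0.829% of the promoter windows.

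Compared per nucleotide of RNA, which puts RNAs of different length on 1 scale, the order changed. VTRNA1-2 had 19.5, 14.7 and 22.1 CPM per nucleotide in replicates 1, 2 and 3, RPPH1 had 5.75, 7.83 and 8.28, and VTRNA1-1 had 1.90, 2.39 and 2.05. Per nucleotide of the whole RNA, the 3 ranges did not overlap. On that scale VTRNA1-2 was 3.39-fold, 1.88-fold and 2.67-fold above RPPH1, and 10.3-fold, 6.14-fold and 10.8-fold above VTRNA1-1. The listed sites covered 55, 217 and 144 nt of RPPH1 in replicates 1, 2 and 3, and 68, 60 and 58 nt of VTRNA1-2. The separation is therefore not shown per nucleotide of listed site. With both vault RNAs summed, the log2 ratio of RPPH1 to the vault RNAs was -0.46 ± 0.38 per nucleotide of RNA and 0.22 ± 0.84 per nucleotide of listed site (SD, n = 3), so this order depended on the length used.

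Over the 3 GTPBP8 libraries, the named nuclear genes with the levels most like RPPH1 were NEDD4, VTRNA1-2 and CPNE4, with distances of 0.63, 1.19 and 1.38 in log2 CPM (Euclidean, over 3 libraries). For VTRNA1-2 they were CPNE4, NEDD4 and RPPH1, with distances of 0.50, 0.87 and 1.19. The NEDD4 site had 2337, 1793 and 2917 CPM in replicates 1, 2 and 3, on both sides of RPPH1. The CPNE4 site had 1440, 1434 and 1468, below VTRNA1-2 in replicates 1 and 3 and above it in replicate 2. By position, the site named CPNE4 lay on a cysteine tRNA gene, TRC-GCA6-1.

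**Figure D2:**
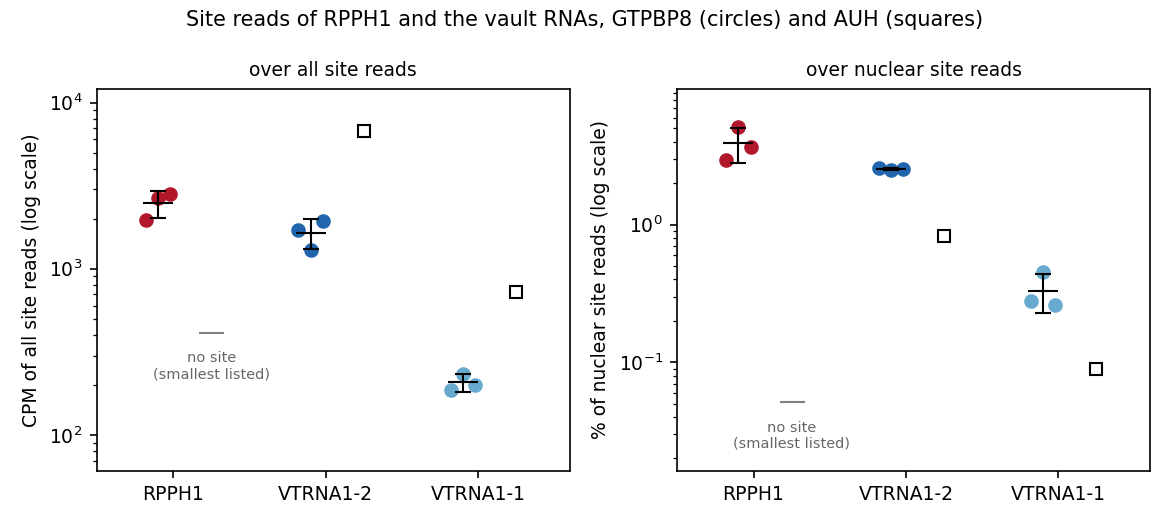
Site reads of RPPH1, VTRNA1-2 and VTRNA1-1 as CPM over all site reads (left, log scale) and as % of nuclear site reads (right, log scale). Circles are GTPBP8 replicates 1 to 3 from left to right with mean and SD, squares the AUH library, and the grey dash the smallest site listed for AUH (413 CPM, or 0.0513% of nuclear site reads), since AUH had no site on RPPH1. The AUH square for VTRNA1-2 is above the GTPBP8 circles on the left and below them on the right.

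The share of reads with a T-to-C conversion, which was not used to choose the RNAs, was lower at RPPH1 than at VTRNA1-2 in every GTPBP8 library, and the share of conversion events did not keep this order. RPPH1 had 55.8% (95% Wilson interval 52.3 to 59.2), 45.7% (43.3 to 48.1) and 57.1% (54.2 to 59.9) in replicates 1, 2 and 3. VTRNA1-2 had 65.1% (61.5 to 68.6), 63.6% (60.3 to 66.9) and 69.5% (66.2 to 72.6). VTRNA1-1, with fewer reads, had 48.0% (37.1 to 59.1), 46.3% (38.4 to 54.3) and 65.4% (54.6 to 74.9). These intervals take each read as independent, but PCR copies are among the reads, so they are too narrow even for counting error. They also leave out the spread between libraries.

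The other nuclear sites, pooled, had 66.2%, 66.8% and 63.5% converted reads. Site by site, those with at least 100 reads, a limit chosen after seeing the data, ranged from 13.1% to 100%, 13.1% to 100% and 11.7% to 100%. The RPPH1 share lay within this range in each library. From the pooled sites RPPH1 differed by -10.4, -21.2 and -6.46 percentage points, and was lower in 3 of 3 libraries. The mean difference was -12.7 ± 7.61 points (SD, n = 3), and p was 0.25 in an exact two-sided sign-flip test, which cannot go lower with 3 libraries. The 2 vault RNAs together differed from the other nuclear sites by -2.80, -5.87 and 5.61 points, with a mean of -1.02 ± 5.94 (SD, n = 3, exact sign-flip p = 0.75), which is within the spread between replicates for this pooled reference. RPPH1 differed from the vault RNAs by -7.62, -15.3 and -12.1 points, a mean of -11.7 ± 3.85 (SD, n = 3, exact sign-flip p = 0.25, again the smallest possible). Against VTRNA1-2 alone the mean difference was -13.2 ± 4.38 points, with the same p in the same test. Of the other nuclear sites, the median site had 87.5%, 91.6% and 87.5% converted reads. Against this median site both were lower in 3 of 3 libraries, the vault RNAs by a mean of -24.3 ± 6.14 points and RPPH1 by -36.0 ± 8.60 (SD, n = 3, exact sign-flip p = 0.25 for each). Nuclear sites had a median of 8, 8 and 9 reads, far fewer than the sites of RPPH1 and the 2 vault RNAs. Over other nuclear sites of at least 100 reads, the median share was 79.8%, 77.8% and 73.4%. Heavily read sites thus had lower shares, so this comparison cannot tell RPPH1 or the vault RNAs from other heavily read sites. Each listed site had conversions at 2 positions or more.

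The thymidine content of the sites also differed, and its part in the shares of converted reads was not tested. The RPPH1 main site of replicate 1 had 9 thymidines in 55 nt (16.4%), and the VTRNA1-2 site had 23 in 68 nt (33.8%). As the conversion events over all events that the lists count at a site, converted or not, RPPH1 had 13.8%, 10.3% and 14.7% in replicates 1, 2 and 3, VTRNA1-2 had 11.1%, 10.9% and 11.0%, and the other nuclear sites had 11.0%, 10.7% and 10.8%. On this scale RPPH1 was above both in replicates 1 and 3 and below both in replicate 2. Its mean difference from the other nuclear sites was 2.14 ± 2.21 points (SD, n = 3, exact sign-flip p = 0.5), and from the 2 vault RNAs together it was 2.45 ± 1.92, higher in 3 of 3 libraries (SD, n = 3, exact sign-flip p = 0.25). The lower conversion of RPPH1 thus held for reads and not for events, a comparison added after the data were seen. Conversions were spread over the sites. They occurred at 9 of 9, 16 of 23 and 8 of 9 thymidines of the RPPH1 main site and at 18 of 23, 19 of 19 and 18 of 19 of the VTRNA1-2 site. A converted read carried 1.12 ± 0.0297 conversions at RPPH1 and 1.18 ± 0.0575 at VTRNA1-2 (SD, n = 3), beside 1.22, 1.21 and 1.24 over the other nuclear sites.

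The number of reads per distinct read sequence, which PCR copies and short fragments both raise, was lower at RPPH1 and VTRNA1-2 than over the other nuclear sites in 3 of 3 libraries. Nuclear sites had a median length of 27, 28 and 27 nt in replicates 1, 2 and 3, shorter than the RPPH1 main site and the VTRNA1-2 site. The part of site length in this difference was not tested. RPPH1 had 1.37, 1.43 and 1.42 reads per distinct sequence and VTRNA1-2 had 1.32, 1.40 and 1.3, against 1.65, 1.77 and 1.60 over the other nuclear sites of replicates 1, 2 and 3. VTRNA1-1 had 1.47, 1.88 and 1.35, and was above the other nuclear sites in replicate 2.

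**Figure D3:**
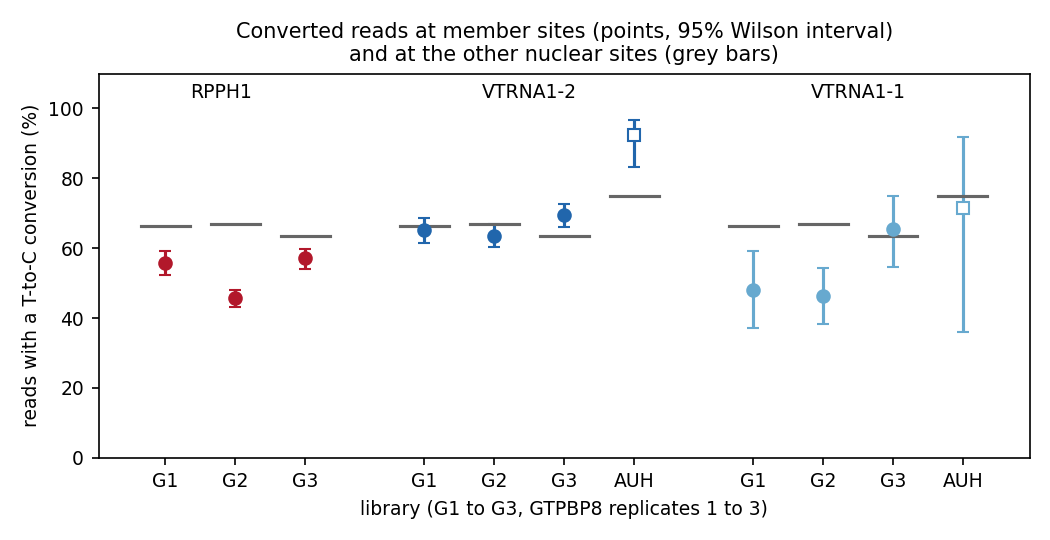
Share of reads with a T-to-C conversion (%, vertical axis) at RPPH1, VTRNA1-2 and VTRNA1-1 in GTPBP8 replicates 1 to 3 (G1 to G3, filled circles) and AUH (open squares), with 95% Wilson intervals. Grey bars are the other nuclear sites of the same library, pooled over reads. The RPPH1 circles are below the bar in all 3 replicates, at 55.8%, 45.7% and 57.1%, and the AUH square of VTRNA1-2 is at 92.3%.

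AUH is an RNA-binding protein of mitochondria, expressed here from the same kind of inducible system as GTPBP8. The AUH list had no called site on RPPH1, on either strand. RPPH1 was chosen for its reads with GTPBP8, so scaling its share to the AUH library describes the depth and tests nothing. At the AUH depth, the RPPH1 share of the GTPBP8 libraries, summed over its sites, comes to 19, 25.8 and 27.4 reads over all site reads, and to 231, 400 and 285 reads over nuclear site reads, while the smallest AUH site had 4 reads. The AUH list and the GTPBP8 lists were made in different layouts, and the sources used here do not name the program behind the AUH sites, so the part of site calling in this difference was not tested. RMRP, the RNA of RNase MRP, which is related to RNase P and shares most of its proteins, had listed sites for AUH alone. It had 2 AUH sites with 36 and 22 reads (58 in all, 5989 CPM) and no listed site in any GTPBP8 library. The part of site calling was not tested for RMRP either.

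The AUH list names no vault RNA, but by position it had a site on VTRNA1-2 and one on VTRNA1-1, both listed without annotation. The VTRNA1-2 site ran from 47 to 95 of the RNA, with its last 7 nt beyond the RefSeq end, and had 65 reads and conversions at 9 of 16 thymidines. It lay over the 3′ part that the GTPBP8 sites also covered. The VTRNA1-1 site had 7 reads at 37 to 76, and overlapped the site of GTPBP8 replicate 1 by 33 nt and that of replicate 2 by 3 nt. By reads, the VTRNA1-2 site was in place 19 of the 674 nuclear AUH sites.

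Whether VTRNA1-2 had more reads with GTPBP8 or with AUH depended on the denominator. Over all site reads, AUH had 6712 CPM, and the GTPBP8 libraries had 0.256, 0.193 and 0.290 of that value. Over nuclear site reads, AUH had 0.834%, and the GTPBP8 libraries stood at 3.11, 2.98 and 3.02 times that share, on average 3.04 ± 0.0654 times (SD, n = 3). Over the reads of sites on RNA polymerase III genes, found by position, AUH had 2.23%, and GTPBP8 was 2.78 ± 0.233-fold higher (SD, n = 3). These SDs cover the spread of the GTPBP8 libraries alone and leave out the error of the 1 AUH library, which had 65 reads at this site. All 3 GTPBP8 libraries were on the same side of AUH under each denominator. VTRNA1-1 moved likewise, from 723 CPM for AUH against 207 ± 24.6 for GTPBP8 to 0.0898% against 0.331% ± 0.104 of nuclear site reads (SD, n = 3). The share of VTRNA1-2 reads with a conversion was 92.3% for AUH (95% Wilson interval 83.2 to 96.7) and 66.1% ± 3.06 for GTPBP8 (SD, n = 3). Permuting the 4 libraries (exact, two-sided) gave p = 0.25, and no smaller p is possible with 3 against 1. The other nuclear AUH sites had 74.9% converted reads when pooled, and 64.0% when sites of at least 10 reads were pooled, beside 64.9%, 64.6% and 62.2% for GTPBP8. The median other nuclear site had 100% for AUH, and 87.5%, 91.6% and 87.5% for GTPBP8. AUH shares rest on estimated counts from a list of another layout, and the part of this in the VTRNA1-2 difference was not tested.

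RPPH1 and VTRNA1-2 stood among other RNA polymerase III genes at the top of the nuclear lists. Of the 10 nuclear sites with most reads, 6 lay on such genes by position in each GTPBP8 library, 4 on tRNA genes beside RPPH1 and VTRNA1-2. In the AUH library 6 of 10 did, all on tRNA genes. RPPH1 and VTRNA1-2 were chosen by their reads, so their part in the GTPBP8 count follows from that choice. The nuclear GTPBP8 site with most reads was on a valine tRNA gene, TRV-CAC3-1, with 3400, 3698 and 4015 reads in replicates 1, 2 and 3, beside 790, 1675 and 1139 for RPPH1. The lists leave this site without a gene name, and positions were compared without strand, since the table of gene positions gives none. Together, RNA polymerase III genes held 42.5%, 36.8% and 44.0% of the nuclear site reads of GTPBP8 and 37.4% of those of AUH. RPPH1 made up 6.96%, 13.9% and 8.32% of these GTPBP8 reads.

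GTPBP8 had 17, 21 and 26 sites on RNA polymerase III genes, which were 4.08%, 3.02% and 6.53% of its nuclear sites, with 9, 10 and 17 on tRNA genes. AUH had 120 such sites, 17.8% of its nuclear sites, with 112 on tRNA genes. In all 3 GTPBP8 libraries, 9 such genes had a site: RPPH1, VTRNA1-1, VTRNA1-2, the tRNA genes TRC-GCA6-1, TRS-CGA4-1, TRV-CAC3-1 and TRV-TAC3-1, and the pseudogenes RN7SL836P and RNA5SP278. 4 of these, both vault RNAs, TRS-CGA4-1 and TRV-CAC3-1, had an AUH site. 7SK RNA (RN7SK), which controls transcription elongation, had an AUH site of 82 reads without annotation and none for GTPBP8. RNY1, a Y RNA that binds the Ro protein, had 87 and 137 reads in GTPBP8 replicates 1 and 2 (216 and 218 CPM) and no listed site in replicate 3 or for AUH.

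The genes for proteins that act with RPPH1 and the vault RNAs were searched by name. As background, nuclear sites carried the names of 0.883%, 1.9% and 0.868% of the 20056 RefSeq protein-coding genes in the GTPBP8 lists and of 1.93% in the AUH list, so lists this short are too small to stand apart from it. Of the 11 genes for proteins of RNase P and RNase MRP, POP7 had a site of 7 reads in GTPBP8 replicate 1 (17.4 CPM), RPP30 had 1 of 6 reads for AUH (620 CPM), and the other 9 had none in any library. The 3 vault protein genes (MVP, TEP1 and PARP4) and the 3 genes of mitochondrial RNase P (TRMT10C, HSD17B10 and PRORP) had no listed site. Among the families searched by name, RNA5SP278, a 5S rRNA pseudogene, had 143, 180 and 107 reads in GTPBP8 replicates 1, 2 and 3, and the 7SL pseudogene RN7SL836P had 17, 10 and 16. RNA5SP476 (14 and 6 reads) and the U6 pseudogene RNU6-31P (16 and 14) had sites in replicates 1 and 2, and RNA5SP258 (43) and RNU6ATAC5P (14) in replicate 3. In the AUH list, the names RNA5SP132, given together with U3, RNA5SP77 and TRI-TAT2-3 had 44, 6 and 12 reads.

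**Figure D4:**
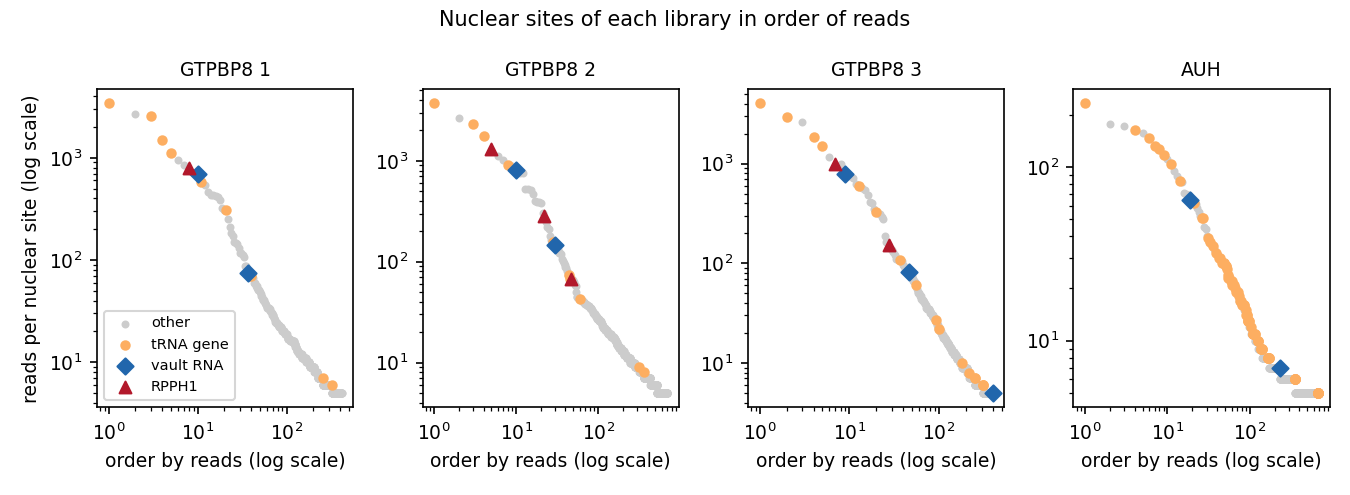
Reads per nuclear site (vertical axis, log scale) against the order of the site by reads (horizontal axis, log scale) in GTPBP8 replicates 1 to 3 and AUH. Triangles are RPPH1, diamonds vault RNAs, orange points sites on tRNA genes by position and grey points the other sites. RPPH1 and VTRNA1-2 are within the first 10 sites of each GTPBP8 library, behind sites on tRNA genes and some of the other sites.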

How the data were processed

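The authors processed the GTPBP8 reads with Bcl2fastq (version 2.17.1 per the labels), Cutadapt, PARpipe and PARalyzer on hg38, and deposited binding sites called per library, with counts of reads, distinct read sequences and conversions, the fraction of converted reads and a mode score, which was not used. The deposited AUH list, of another layout, gives converted reads (estimated counts) and their fraction, from whose quotient the AUH reads were rounded. GTPBP8 converted reads were the fraction times the reads, rounded (whole within 0.001 at 98.4% to 99.3% of sites).

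Start positions of the AUH list were moved to count from 1. Site sequences inside RefSeq promoter windows (GRCh38.p14) then had the same letters in 20 of 20 GTPBP8 and 18 of 18 AUH cases. Genes by position needed an overlap of at least 1 nt. RNA positions of RPPH1 count from the minus strand, which is not in the gene table used. Samples were grouped by their titles.

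The RNAs and gene lists were chosen with earlier results of these data known. Named genes are the members, listed RNase P, vault and RNA polymerase III genes with sites, and the 3 named nuclear genes nearest to RPPH1 and VTRNA1-2. RN7SK and the tRNA genes, found by position, were named after their values were seen. Because absent sites are not counts of 0, no model across genes was fitted. Shares were compared over libraries by exact sign-flip or permutation tests, which with 3 libraries cannot go below p = 0.25. Alternatives were other denominators, distinct or converted reads, a minimum of 10 reads per site, other reference sites and each replicate left out. The assignment of sites to genes, the sign-flip test and the Wilson interval were checked on simulated data. Values were computed in Python 3.11.15 with scipy 1.17.1, pandas 2.3.3 and numpy 2.4.6, and drawn with matplotlib 3.10.9.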

Additional observations from a re-analysis of the deposited data

How the results depend on the processing

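The unit and the denominator set the size of the levels. Per 1000000, RPPH1 had 2485 of all site reads, 5143 of distinct sequences and 39169 of nuclear site reads, and the vault RNAs had 1858, 4034 and 28616. With a minimum of 10 reads per site or with converted reads, and for the vault RNAs by position, the levels moved by less than the SD between libraries. Without 1 replicate they ranged from 2315 to 2747 for RPPH1 and from 1714 to 2024 for the vault RNAs. RPPH1 kept the lower share of converted reads against each other set of reference sites. The difference went from -36.0 points against the median nuclear site, a site of few reads, to -7.88 against mitochondrial sites. It ranged from -15.8 to -8.44 without 1 replicate, but by conversion events, added after seeing the data, it turned to 2.14. For the vault RNAs (-1.02 points) the value was -24.3 against the median nuclear site and -0.31 by conversion events, and the direction turned with nuclear sites of at least 10 reads (0.61), against mitochondrial sites (3.78) and with nuclear sites of at least 100 reads (0.29, chosen after seeing the data), and ranged from -4.34 without replicate 3 to 1.40 without replicate 2. RPPH1 minus vault RNAs (-11.7) was -8.56 ± 6.97 with shares averaged over sites, ranged from -13.7 to -9.84 without 1 replicate, and turned to 2.45 by conversion events. RPPH1 over the vault RNAs per nucleotide (log2 -0.46) turned to 0.22 per nucleotide of site, and ranged from -0.65 to -0.27 without 1 replicate. VTRNA1-2 with GTPBP8 over AUH (log2 -2.04 over all site reads, added after seeing the data) turned to 1.60 over nuclear site reads and 1.47 over reads on RNA polymerase III genes, and ranged from -2.17 to -1.88 without 1 replicate. The AUH values rest on 65 and 7 reads. No paired analysis was possible because AUH has 1 library, so that the groups share fewer than 2 replicate numbers. The causes were not tested.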
